A study of Mus musculus with 2 samples.

Results

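The 38 genes described here encode the proteins that bring glucose into cells, break it down through glycolysis, pass pyruvate to lactate or to the TCA cycle, and divert glucose 6-phosphate into the pentose phosphate pathway. They were chosen by name, as rows of the deposited gene tables, and all 38 were found among 22093 gene symbols with a usable value. Each of the 38 reached 1 FPKM (fragments counted for a gene, relative to the length of its transcript and the size of the library) in at least 1 of the 2 libraries, the level above which a gene is called measured here, as did 12409 genes in all. Slc2a3 reached it only in the Tsc1cKO library and Aldoc only in the control library.

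RNA was sequenced from sciatic nerves of mice of mixed strain at postnatal day 7, with 1 library from Tsc1cKO nerves and 1 from control nerves. The labels name the genotypes only as Tsc1cKO and control. The names the submitters gave the deposited tables read as Dhh-Cre with 2 conditional Tsc1 alleles (c/c) for Tsc1cKO, and as Dhh-Cre with 1 conditional and 1 wild-type allele (c/+) for control, so that both groups carry Cre and the control is read as heterozygous in Cre-expressing cells. Dhh (desert hedgehog) is expressed by developing Schwann cells, the glia of peripheral nerve, so the deletion is expected in these cells, while each value covers the whole nerve with its fibroblasts, vessels, perineurium and immune cells. The sources used here do not say how many animals went into a library.

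With 1 library per group there was no replicate, no test and no error between animals. "Higher" and "lower" describe these 2 libraries. Differences are given as log2(FPKM + 1) in Tsc1cKO minus the same in control, a scale on which low genes look closer together than they are, and folds are ratios of the FPKM themselves. In whole nerve, fewer cells of a type and less RNA per cell cannot be told apart. The number of fragments behind a value is unknown. Tsc1, the targeted gene, was at 2.28 FPKM in Tsc1cKO and 3.76 FPKM in control over its whole length and all cells, a difference of −0.53 (−0.69 after the scaling described below).

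In glycolysis, glucose enters through transporters, is phosphorylated by hexokinase, and is split after a second phosphorylation by phosphofructokinase. The later enzymes recover ATP and NADH and end at pyruvate, which lactate dehydrogenase turns into lactate or the pyruvate dehydrogenase complex feeds into the mitochondria. The pentose phosphate pathway supplies NADPH, used in lipid synthesis, and ribose for nucleotides. Tsc1 is a subunit of the complex that restrains mTORC1, a kinase complex known to raise glycolytic and pentose phosphate gene expression through HIF1, MYC and SREBP in cultured mouse cells. Myelinating Schwann cells are known both for heavy lipid synthesis and for supplying lactate to axons.

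Promoter sequences of these genes were searched because the HIF1 and MYC families bind short motifs built on ACGTG (core of the hypoxia response element) and CACGTG (the E-box, which contains ACGTG). Windows of 250 bases before to 50 bases after annotated starts came from RefSeq (GRCm38.p6) and were found for 36 of the 38 genes, Pkm2 through its present symbol Pkm, and not for Slc2a3 and Idh3a. Searched on both strands, ACGTG lay in at least 1 window of 19 of these 36 genes (52.8%), against 21.8% of all 27025 genes with a window and 29.4% of the 8832 measured genes that matched by symbol. CACGTG lay in 7 of the 36 (19.4%), against 8.09% of all genes and 11.8% of measured genes. Genes differ in the number of annotated starts, and base composition was not matched, so these shares are descriptions, and a match shows the letters and not a bound site.

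Bases before the start are printed 5′ to 3′ for 5 genes, the 250 bases before the first listed start in each case, with ACGTG or its reverse complement in capitals. Ldha, Pfkp and Eno2 are shown as genes with higher values by more than 2-fold in Tsc1cKO, Pgk1 as a higher gene of lower glycolysis and Slc16a1 as a lower gene. The capitals mark 3 separate places in Ldha (2 of them CACGTG), 2 in Pgk1 and 1 in Slc16a1, which is CACGTG.
Ldha (chr7:46845554-46845803, plus strand): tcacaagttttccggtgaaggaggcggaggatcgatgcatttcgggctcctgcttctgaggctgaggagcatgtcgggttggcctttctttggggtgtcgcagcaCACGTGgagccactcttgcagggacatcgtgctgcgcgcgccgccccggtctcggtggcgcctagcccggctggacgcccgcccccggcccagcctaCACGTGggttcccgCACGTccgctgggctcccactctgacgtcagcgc
Pgk1 (chrX:106186850-106187099, plus strand): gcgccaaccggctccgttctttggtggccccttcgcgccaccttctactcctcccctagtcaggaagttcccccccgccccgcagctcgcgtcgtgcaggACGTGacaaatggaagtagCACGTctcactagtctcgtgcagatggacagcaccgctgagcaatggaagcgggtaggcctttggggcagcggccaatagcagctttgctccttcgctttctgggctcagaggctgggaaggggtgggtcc
Slc16a1 (chr3:104638414-104638663, plus strand): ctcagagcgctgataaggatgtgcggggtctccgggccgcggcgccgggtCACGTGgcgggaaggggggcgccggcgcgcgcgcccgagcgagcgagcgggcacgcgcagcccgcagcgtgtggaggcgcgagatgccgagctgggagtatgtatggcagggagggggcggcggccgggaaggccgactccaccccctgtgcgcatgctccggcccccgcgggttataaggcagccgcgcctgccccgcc
Pfkp (chr13:6648772-6649021, minus strand): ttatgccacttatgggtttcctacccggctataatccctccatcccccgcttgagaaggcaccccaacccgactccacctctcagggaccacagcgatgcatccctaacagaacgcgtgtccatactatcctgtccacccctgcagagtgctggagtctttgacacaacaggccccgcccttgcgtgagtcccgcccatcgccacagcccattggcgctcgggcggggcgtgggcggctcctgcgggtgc
Eno2 (chr6:124769674-124769923, minus strand): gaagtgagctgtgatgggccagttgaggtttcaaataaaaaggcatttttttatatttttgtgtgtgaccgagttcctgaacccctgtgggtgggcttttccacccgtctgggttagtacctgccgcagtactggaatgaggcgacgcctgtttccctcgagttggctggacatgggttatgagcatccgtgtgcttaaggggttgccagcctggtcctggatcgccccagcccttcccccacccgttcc
No capitals appear in Pfkp and Eno2, and a second annotated start of Ldha had no match either. Matches were found before a gene that was higher, Ldha, and before a gene that was lower, Slc16a1. Of the 3 genes with the highest differences among those with a window, 2 had none in these bases. The 5 genes were picked by their values, and a link between motifs and differences was not tested.

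Across the 38 genes, 29 were higher and 9 lower in Tsc1cKO as deposited. The whole table was shifted in the same direction, since 67% of the 12409 measured genes were higher, with a median difference of 0.20. The median difference of the 38 genes was 0.30. A scaling that sets the median log2 ratio of genes at 5 FPKM or more in each library to 0 removed a shift of 0.24, and values after it are called centred below. Centred, 22 of the 38 genes were higher and 16 lower, with a median of 0.08, against −0.01 and 49.4% higher for all measured genes. The directions of 7 genes depended on scaling, namely Gpi1, Eno1, Pdha1, Pdk4, Cs, Idh3a and Taldo1, whose differences were between 0.10 and 0.23 as deposited.

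At least 2-fold differences, counted here and below as 1 or more on the log2(FPKM + 1) scale, were found for 5 genes. Slc2a3, Pfkp, Eno2 and Ldha were higher by that size, 4 of 38, where 5.03% of all measured genes were. Aldoc was the 1 gene lower by that size, where 3.06% of measured genes were. Centred, Slc2a3, Pfkp, Eno2 and Aldoc stayed past 2-fold and Ldha, at 0.96, fell just short, with 2.89% of measured genes higher and 4.69% lower by that size.

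**Figure D1:**
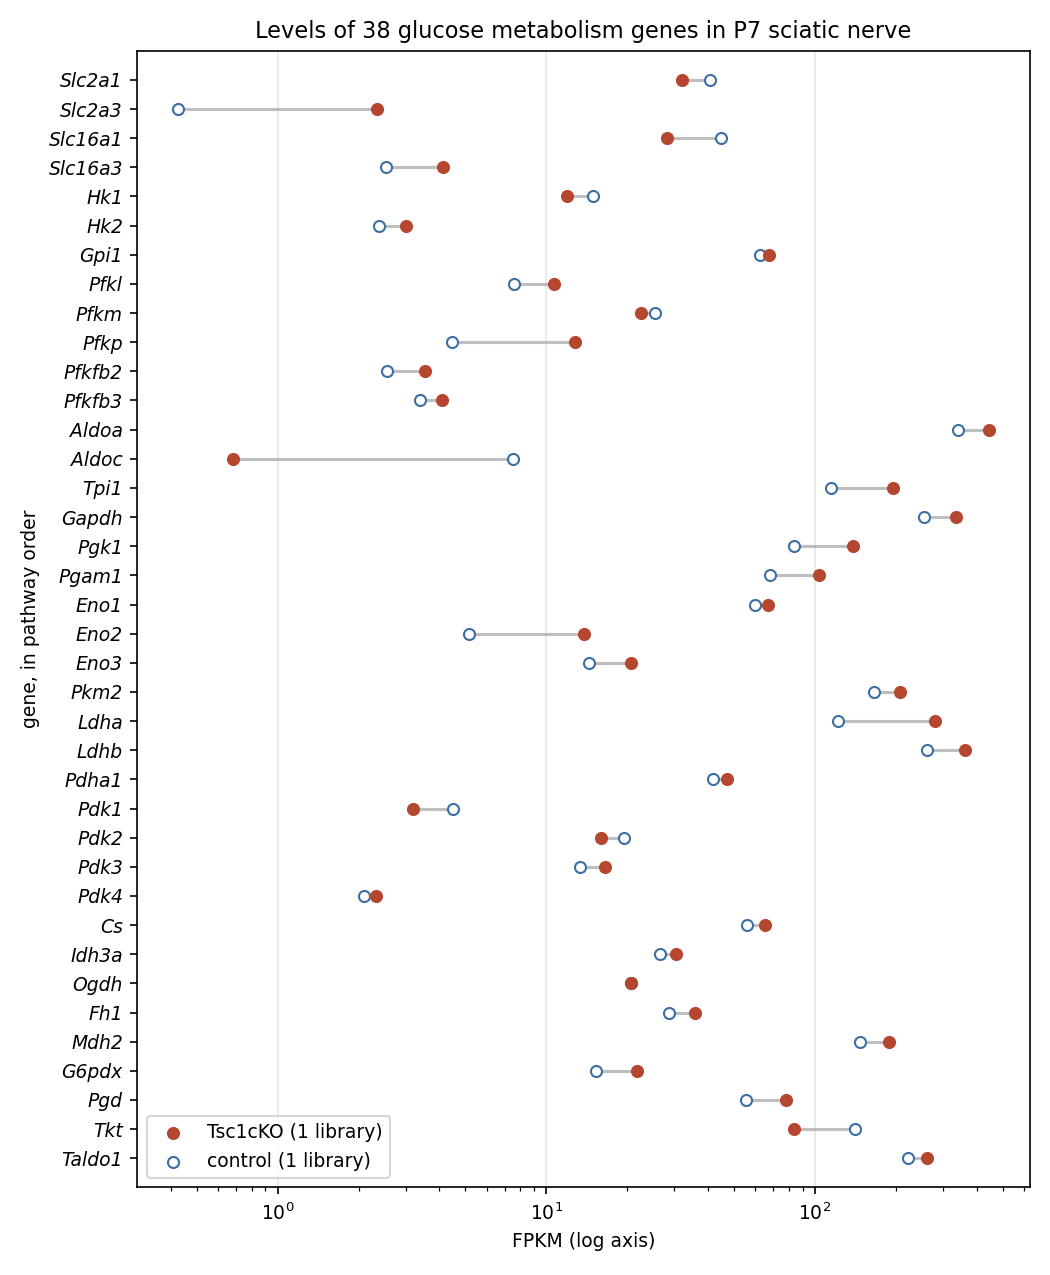
FPKM on a log axis for each of the 38 genes, in pathway order, in the Tsc1cKO library (filled points) and the control library (open points). The widest gaps are those of Aldoc (0.682 and 7.51 FPKM), Slc2a3 (2.33 and 0.425 FPKM), Pfkp (12.8 and 4.45 FPKM), Eno2 (13.8 and 5.17 FPKM) and Ldha (281 and 122 FPKM).

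**Figure D2:**
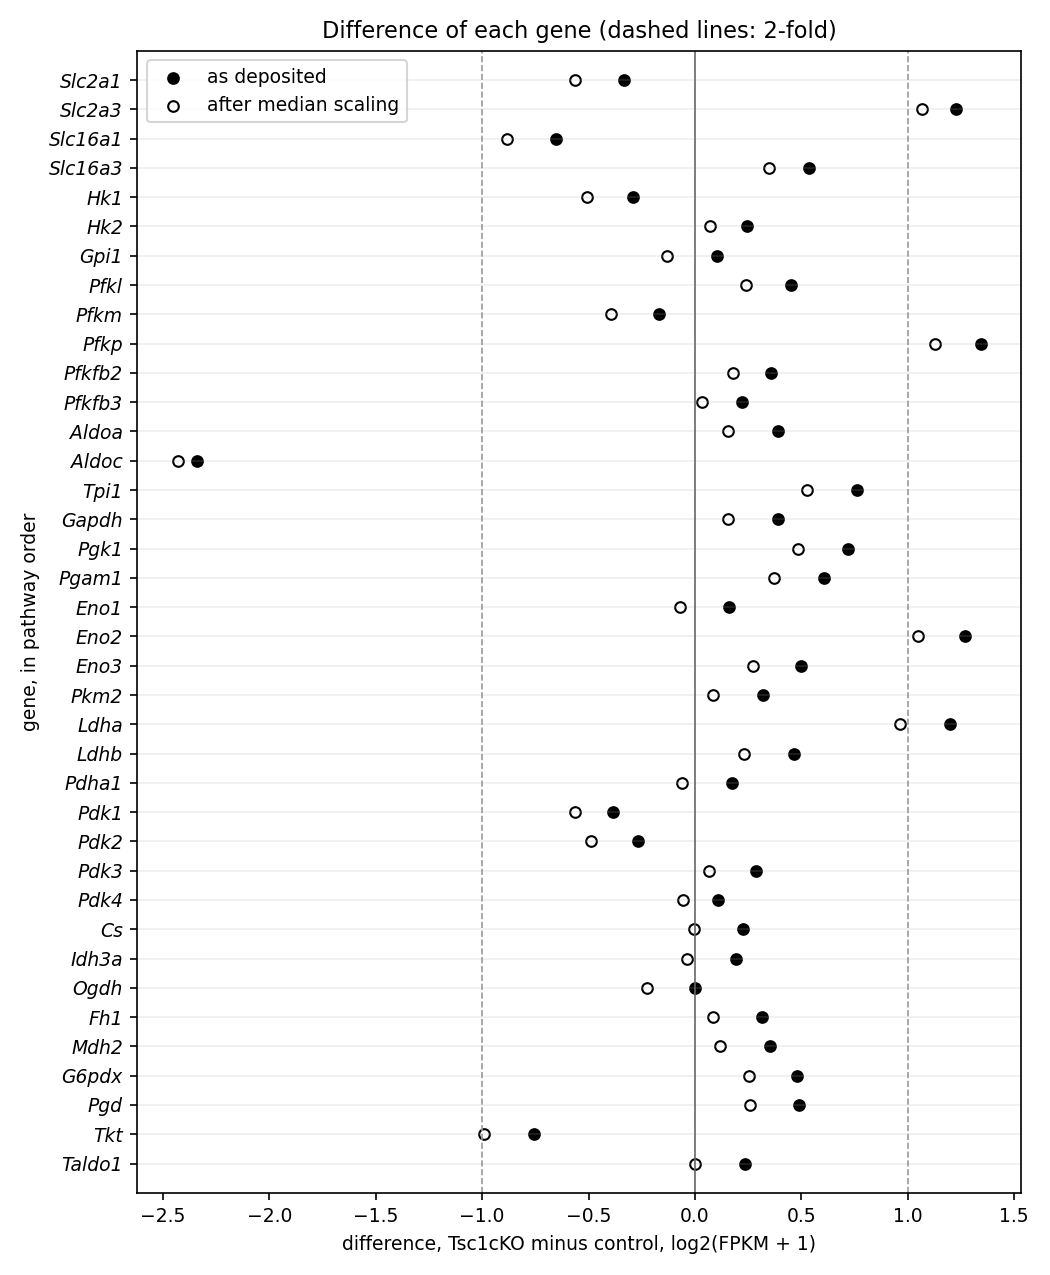
Difference of each gene, Tsc1cKO minus control in units of log2(FPKM + 1), as deposited (filled) and after median scaling (open), with dashed lines at 2-fold. Points run from −2.34 for Aldoc to 1.34 for Pfkp as deposited, and scaling moves all but the lowest genes by about 0.2.

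The member genes of glucose uptake and of the first phosphorylation had lower summed FPKM in Tsc1cKO. Slc2a1, which encodes GLUT1, the main glucose transporter of the blood-nerve barrier, was at 31.96 FPKM in Tsc1cKO and 40.6 FPKM in control (mm9, chromosome 4, 118781350 to 118809934), a difference of −0.33 (−0.56 centred). Slc2a3, which encodes the high-affinity transporter GLUT3 known from neurons, was at 2.33 FPKM in Tsc1cKO and 0.425 FPKM in control (chromosome 6, 122677827 to 122692763), 5.49-fold higher. Both transporters therefore went in opposite directions, but Slc2a3 held only 6.80% of their summed FPKM in Tsc1cKO and 1.04% in control.

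The lower Slc2a1 value stood beside lower values of every listed marker of the vessel and perineurial cells that form the barrier. Endothelial markers were lower in 8 of 8 cases, with summed levels of 132 FPKM in Tsc1cKO and 159 FPKM in control, and perineurial markers in 6 of 6, at 82.2 and 106 FPKM. Itgb4 held the largest part of the perineurial sum, at 38.7 FPKM in Tsc1cKO and 43.3 FPKM in control. Whole nerve does not show which cells expressed a marker. The part of vessel and perineurial cells in the Slc2a1 value was not tested. Beside Slc2a3, 1 of 8 neuronal markers was higher, Tubb3, at 25.2 FPKM in Tsc1cKO and 3.99 FPKM in control, and the summed markers were at 30.5 and 11.1 FPKM. The other 7 were lower and ranged up to 2.66 FPKM in Tsc1cKO and 2.79 FPKM in control (both Stmn2), with Rbfox3 at 0 and 0.0557 FPKM. Their part in the Slc2a3 value was not tested.

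Hexokinase, which traps glucose in the cell, was represented by Hk1 and Hk2. Hk1, the widely expressed form, was at 12.0 FPKM in Tsc1cKO and 14.9 FPKM in control, a difference of −0.29 (−0.51 centred), and its span overlaps that of 2210417K05Rik. Hk2, a form induced by growth factors and hypoxia in many cultured cells, was at 2.997 FPKM in Tsc1cKO and 2.38 FPKM in control, a difference of 0.24 (0.07 centred). Hk1 held 80.0% of the summed hexokinase FPKM in Tsc1cKO and 86.2% in control.

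Gpi1, which encodes the isomerase between glucose and fructose 6-phosphate, was at 67.2 FPKM in Tsc1cKO and 62.5 FPKM in control. The difference was 0.10 (−0.13 centred), so its direction depends on scaling.

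Phosphofructokinase, the main control point of glycolysis, differed between the libraries in the mix of its 3 subunit genes. Pfkp, the platelet-type subunit, was at 12.8 FPKM in Tsc1cKO and 4.45 FPKM in control (chromosome 13, 6579120 to 6647970), 2.88-fold higher, with a difference of 1.34 (1.13 centred). Pfkl, the liver-type subunit, was at 10.7 FPKM in Tsc1cKO and 7.55 FPKM in control, a difference of 0.45 (0.24 centred). Pfkm, the muscle-type subunit and the most abundant of the 3 in both libraries, was at 22.6 FPKM in Tsc1cKO and 25.5 FPKM in control, a difference of −0.17 (−0.39 centred).

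As shares of the summed phosphofructokinase FPKM, which no scaling of a library changes, Pfkp made up 27.8% in Tsc1cKO and 11.9% in control, Pfkl 23.2% and 20.1%, and Pfkm 48.9% and 68.0%. The span of Pfkp overlaps the end of Pitrm1, with which a Pfkp transcript shares 748 identical bases in a later annotation (GENCODE M21). Pitrm1 itself was at 18.004 FPKM in Tsc1cKO and 13.3 FPKM in control, 1.35-fold higher, so its own difference was smaller than that of Pfkp, but the Pfkp value is uncertain. The span of Pfkm overlaps that of Senp1.

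PFK-2/FBPase-2 enzymes make and remove fructose 2,6-bisphosphate, the strongest activator of phosphofructokinase. Pfkfb2 was at 3.55 FPKM in Tsc1cKO and 2.55 FPKM in control, a difference of 0.36 (0.18 centred), and contains the span of Yod1. Pfkfb3 encodes the form with the highest ratio of kinase to bisphosphatase activity. It was at 4.10 FPKM in Tsc1cKO and 3.37 FPKM in control, a difference of 0.22 (0.03 centred). Pfkfb4, a gene of the same family outside the 38, was at 23.6 FPKM in Tsc1cKO and 4.13 FPKM in control, 5.70-fold higher. With it and the low Pfkfb1 counted, Pfkfb4 held 73.2% of the family's summed FPKM in Tsc1cKO and 38.5% in control.

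Aldolase, which splits fructose 1,6-bisphosphate, showed the lowest difference of the 38 genes. Aldoc, the form known from brain astrocytes and Purkinje cells, was at 0.682 FPKM in Tsc1cKO and 7.51 FPKM in control (chromosome 11, 78137700 to 78140262), 11.01-fold lower, with a difference of −2.34 (−2.43 centred). Only 0.34% of measured genes had a lower difference. Aldoa, the ubiquitous form, was at 446 FPKM in Tsc1cKO and 340.2 FPKM in control, a difference of 0.39 (0.15 centred). Because Aldoa held 99.8% of the summed aldolase FPKM in Tsc1cKO and 97.8% in control, the sum of the step was 447 FPKM in Tsc1cKO and 348 FPKM in control despite the Aldoc value.

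From triose phosphates to lactate, all 10 genes were higher as deposited and 9 when centred, with Eno1 the exception, and their median difference was 0.55 (0.32 centred). Tpi1, which interconverts the triose phosphates, was at 196 FPKM in Tsc1cKO and 115 FPKM in control, 1.70-fold higher, although its span overlaps the end of Spsb2 by a few bases. Gapdh, often used as a reference gene, was at 335 FPKM in Tsc1cKO and 255 FPKM in control, a difference of 0.39 (0.16 centred). Gapdh has 9 listed entries with transcripts at least 90% identical to it over 300 bases or more, among them Gm12070 (0.914 and 0.983 FPKM) and Peli2 (35.9 and 54.4 FPKM), so its value is uncertain to the extent that fragments were divided among them.

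Pgk1, which makes the first ATP of glycolysis, was at 138 FPKM in Tsc1cKO and 83.7 FPKM in control, 1.65-fold higher. Pgam1, the mutase that follows, was at 104 FPKM in Tsc1cKO and 67.9 FPKM in control, 1.53-fold higher. Pkm2, the symbol under which the table lists the pyruvate kinase gene, was at 208 FPKM in Tsc1cKO and 167 FPKM in control, a difference of 0.32 (0.09 centred). This entry covers the gene as a whole, so the M1 and M2 splice forms were not separated.

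Enolase, which forms phosphoenolpyruvate, differed most in its least abundant form. Eno2, the neuronal-type enolase, was at 13.8 FPKM in Tsc1cKO and 5.17 FPKM in control (chromosome 6, 124710073 to 124719527), 2.68-fold higher, with a difference of 1.27 (1.05 centred). The neuronal markers given beside Slc2a3, with Tubb3 higher and the other 7 lower in Tsc1cKO, apply here too, and their part in the Eno2 value was not tested.

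Eno3, the muscle-type enolase, was at 20.8 FPKM in Tsc1cKO and 14.4 FPKM in control, a difference of 0.50 (0.27 centred). Skeletal muscle markers were higher in 13 of 13 cases beside it, with a summed level of 870.3 FPKM in Tsc1cKO and 406 FPKM in control. Among them, the muscle creatine kinase gene Ckm was at 102 and 49.2 FPKM. The part of muscle tissue in the values of Eno3, and of the muscle mutase gene Pgam2 given below, was not tested.

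Eno1, the ubiquitous enolase, was at 66.8 FPKM in Tsc1cKO and 59.7 FPKM in control, but this entry cannot be read alone. Gm5506, listed by RefSeq as Eno1b, has an entry whose span lies inside that of Eno1, at 75.9 FPKM in Tsc1cKO and 97.0 FPKM in control. A second Gm5506 entry on chromosome 18 was at 11.7 FPKM in Tsc1cKO and 0.188 FPKM in control. The transcripts of Eno1 and Eno1b were 99.5% identical over 1736 bases in GENCODE M21, so fragments could be divided among the 3 entries in more than 1 way.

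Summed, these 3 entries held 154 FPKM in Tsc1cKO and 157 FPKM in control, a difference of −0.02 (−0.26 centred) in place of the 0.16 of the Eno1 entry. Eno2 was 7.32% of all enolase FPKM in Tsc1cKO and 2.93% in control with the 3 entries counted, and 13.7% and 6.52% with the Eno1 entry alone. The share of Eno2 was higher in Tsc1cKO under both counts.

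Lactate dehydrogenase had the highest summed level of any glycolytic step in both libraries and one of the largest differences. Ldha, the muscle-type subunit that favours lactate formation, was at 281 FPKM in Tsc1cKO and 122 FPKM in control (chromosome 7, 54101174 to 54110997), 2.31-fold higher, with a difference of 1.20 (0.96 centred). Ldhb, the heart-type subunit that favours pyruvate formation, was at 362 FPKM in Tsc1cKO and 262 FPKM in control, a difference of 0.47 (0.23 centred). Ldhb was thus the more abundant subunit in both libraries, but Ldha made up 43.7% of the summed FPKM of the step in Tsc1cKO and 31.8% in control. Markers of cycling cells were higher in 8 of 8 cases beside Ldha and the other genes of lower glycolysis, with summed levels of 153 FPKM in Tsc1cKO and 62.1 FPKM in control, and their part was not tested.

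The summed FPKM of the 2 member genes for lactate and pyruvate transport was lower in Tsc1cKO, unlike that of lactate dehydrogenase. Of these 2 genes, Slc16a1 was lower and Slc16a3 higher. Slc16a1, which encodes MCT1, a monocarboxylate transporter of Schwann cells and perineurium, was at 28.1 FPKM in Tsc1cKO and 44.7 FPKM in control (chromosome 3, 104442591 to 104462385), a difference of −0.65 (−0.88 centred). Only 6.42% of measured genes had a lower difference. Slc16a3, which encodes MCT4, the form that exports lactate from glycolytic cells, was at 4.12 FPKM in Tsc1cKO and 2.53 FPKM in control, a difference of 0.54 (0.35 centred). Slc16a1 held 87.2% of their summed FPKM in Tsc1cKO and 94.6% in control.

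**Figure D3:**
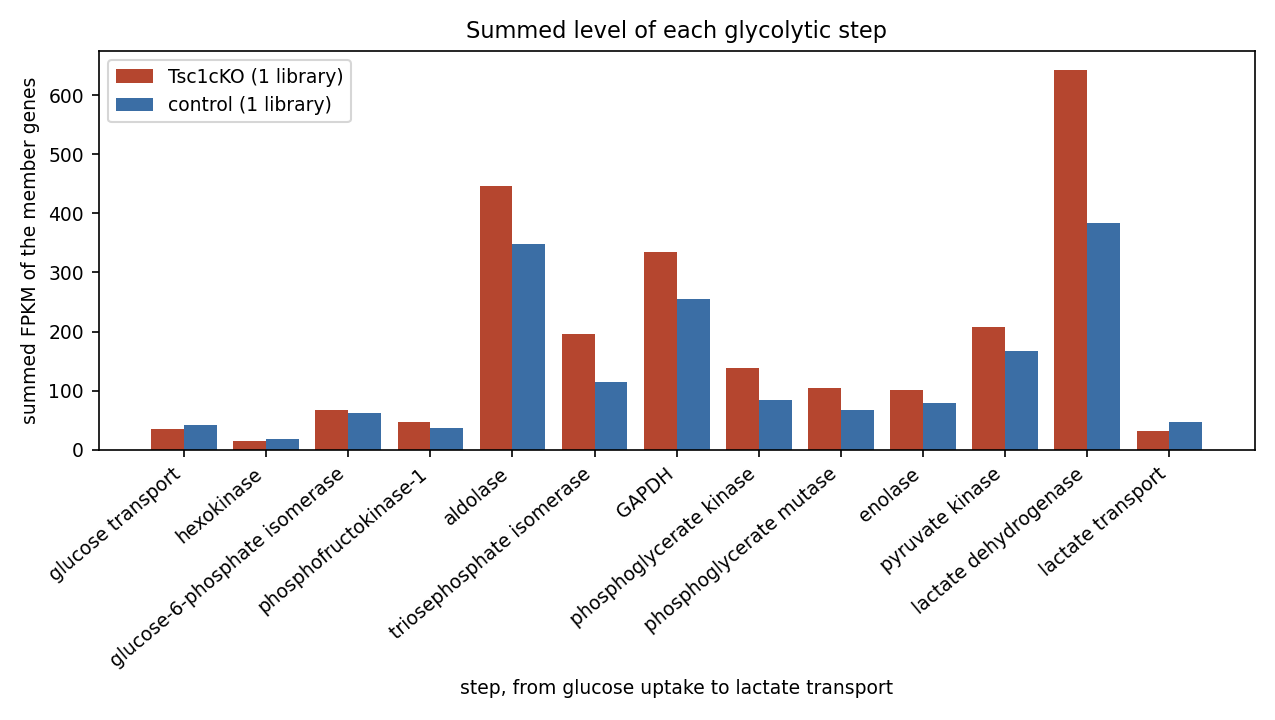
Summed FPKM of the member genes of each step, from glucose uptake to lactate transport, as bars from 0 for the Tsc1cKO library (left bar) and the control library (right bar). Glucose transport, hexokinase and lactate transport are the 3 steps lower in Tsc1cKO, and lactate dehydrogenase is the highest step in both libraries, at 643 and 384 FPKM.

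Read along the pathway, the summed level of a step in Tsc1cKO relative to control was lowest at both ends. The ratios were 0.837 for glucose transport (34.3 and 41.0 FPKM) and 0.867 for hexokinase (14.99 and 17.28 FPKM), and 0.681 for lactate transport (32.2 and 47.2 FPKM). Between them the ratio was 1.08 for glucose-6-phosphate isomerase, 1.23 for phosphofructokinase (46.1 and 37.5 FPKM), 1.28 for aldolase and 1.25 to 1.70 for the steps from triosephosphate isomerase to lactate dehydrogenase. Centred ratios were 0.710 and 0.736 at the entry, 0.578 for lactate transport, 0.913 for glucose-6-phosphate isomerase and 1.04 to 1.45 for the other steps. Hexokinase had the lowest summed level of these steps in both libraries. With both Gm5506 entries counted, the enolase ratio was 1.07 (0.909 centred) in place of 1.28 (1.09 centred). FPKM describe transcripts and not enzyme activity.

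**Figure D4:**
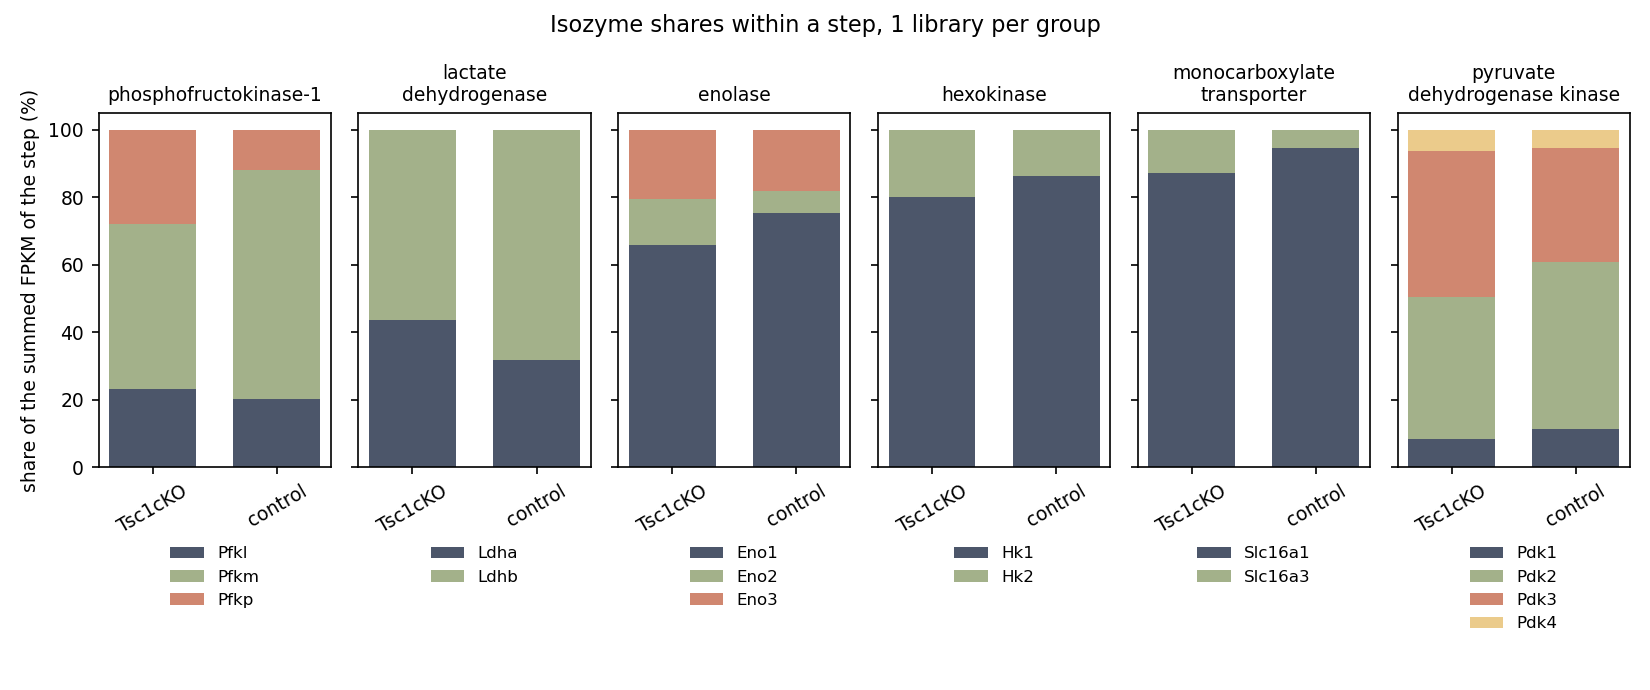
Share of the summed FPKM of a step held by each isozyme or family member, in per cent, for 6 steps, with the Tsc1cKO library left of the control library in each panel. Pfkp takes 27.8% of phosphofructokinase in Tsc1cKO and 11.9% in control, and Ldha 43.7% of lactate dehydrogenase in Tsc1cKO and 31.8% in control. The enolase panel counts the Eno1 entry without Gm5506.

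At the entry of pyruvate into the mitochondria, the 5 genes had differences between −0.39 and 0.29 (−0.56 and 0.07 centred). Pdha1, the catalytic subunit gene of pyruvate dehydrogenase, was at 47.3 FPKM in Tsc1cKO and 41.8 FPKM in control, a difference of 0.17 (−0.06 centred), and its span overlaps that of Map3k15 (0.323 and 0.198 FPKM). The 4 kinases that switch the complex off went both ways. Pdk1, a known HIF1 target, was at 3.20 FPKM in Tsc1cKO and 4.49 FPKM in control, a difference of −0.39 (−0.56 centred). Pdk2 was at 16.05 FPKM in Tsc1cKO and 19.5 FPKM in control, a difference of −0.27 (−0.49 centred).

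Pdk3 was at 16.5 FPKM in Tsc1cKO and 13.4 FPKM in control, a difference of 0.29 (0.07 centred). Pdk4, the form induced by fasting, was at 2.33 FPKM in Tsc1cKO and 2.09 FPKM in control, a difference of 0.11 (−0.05 centred). The most abundant kinase was therefore Pdk3 in Tsc1cKO, with 43.4% of the summed FPKM against 33.9% in control, and Pdk2 in control, with 49.5% against 42.1% in Tsc1cKO.

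Genes of the TCA cycle kept close to the shift of the whole table. Mdh2, the malate dehydrogenase, was at 189 FPKM in Tsc1cKO and 148 FPKM in control, a difference of 0.35 (0.12 centred). Fh1, the fumarase, was at 35.8 FPKM in Tsc1cKO and 28.6 FPKM in control, a difference of 0.32 (0.09 centred). Citrate synthase, encoded by Cs, was at 65.4 FPKM in Tsc1cKO and 55.7 FPKM in control, a difference of 0.23 (−0.0052 centred).

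Idh3a, a subunit of isocitrate dehydrogenase, was at 30.5 FPKM in Tsc1cKO and 26.6 FPKM in control, a difference of 0.19 (−0.04 centred). Ogdh, a subunit of the 2-oxoglutarate dehydrogenase complex, was at 20.7 FPKM in both libraries, a difference of −0.00092 (−0.23 centred). The 5 genes spanned −0.23 to 0.12 when centred, and the 10 genes from triose phosphates to lactate −0.07 to 1.05. The low end of −0.07 is that of the Eno1 entry read alone. Summed with Gm5506 it was −0.26 centred, below the range of the 5 TCA genes.

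Among the 4 genes of the pentose phosphate pathway, 3 were higher and 1, Tkt, was lower as deposited. G6pdx and Pgd, which encode its NADPH-forming enzymes, were at 21.8 and 78.2 FPKM in Tsc1cKO and at 15.3 and 55.3 FPKM in control. Their differences were 0.48 and 0.49 (0.25 and 0.26 centred), with an overlap of the span of G6pdx with that of Ikbkg. Tkt, the transketolase, was at 83.4 FPKM in Tsc1cKO and 142 FPKM in control (chromosome 14, 31362335 to 31387908), 1.70-fold lower, with a difference of −0.76 (−0.99 centred).

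Taldo1, the transaldolase that works beside Tkt, was at 261 FPKM in Tsc1cKO and 222 FPKM in control, a difference of 0.23 (−0.0003 centred). Of all measured genes, 5.19% of measured genes had a lower difference than Tkt. As context for lipid-forming and myelinating cells, the myelin gene Pmp22 was at 2287 FPKM in Tsc1cKO and 15306 FPKM in control.

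Beyond the 38 genes, a list of 83 other genes of the same pathways was examined, of which 70 were measured. Of these, 43 were higher and 27 lower as deposited, and 31 higher and 39 lower when centred, with a median of 0.17 (−0.06 centred). By at least 2-fold on the log2(FPKM + 1) scale, 6 were higher (5.03% of all measured genes) and 2 lower (3.06%). By the ratio of the FPKM themselves, Fbp2, the muscle fructose bisphosphatase (1.79 FPKM in Tsc1cKO and 0.487 FPKM in control, 3.66-fold higher), and Pdp2, a pyruvate dehydrogenase phosphatase (2.08 and 4.19 FPKM, 2.01-fold lower), were past 2-fold too. Centred, 3 were higher and 3 lower by that size.

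The largest positive difference in this list was that of Fbp1, the fructose bisphosphatase of gluconeogenesis, which opposes phosphofructokinase. It was at 6.92 FPKM in Tsc1cKO and 0.293 FPKM in control, a difference of 2.61 (2.41 centred). Pfkfb4, given above, was second, with a difference of 2.26 (2.03 centred). Slc16a8, which encodes the monocarboxylate transporter MCT3 known from retinal pigment epithelium, was at 3.96 FPKM in Tsc1cKO and 0.818 FPKM in control, a difference of 1.45 (1.26 centred).

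Pgam2, the muscle form of the mutase, was at 18.3 FPKM in Tsc1cKO and 8.40 FPKM in control, a difference of 1.04 (0.81 centred), beside the higher muscle markers. Pgm1, a gene of the phosphoglucomutase family (chromosome 5), was at 11.1 FPKM in Tsc1cKO and 4.98 FPKM in control, a difference of 1.01 (0.80 centred). Pgm2, another gene of that family (chromosome 4), went the other way. It was at 14.3 FPKM in Tsc1cKO and 18.3 FPKM in control, a difference of −0.34 (−0.56 centred). Got1, the cytosolic aspartate aminotransferase of the malate-aspartate shuttle, was at 26.2 FPKM in Tsc1cKO and 12.5 FPKM in control, a difference of 1.01 (0.78 centred). Pgam2, Pgm1 and Got1 were past 2-fold as deposited and short of it when centred.

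The 2 listed genes of citrate export for lipid synthesis had lower values in Tsc1cKO. Slc25a1, the mitochondrial citrate carrier, was at 49.96 FPKM in Tsc1cKO and 124 FPKM in control, a difference of −1.29 (−1.52 centred). Acly, which splits citrate into acetyl-CoA in the cytosol, was at 48.1 FPKM in Tsc1cKO and 82.8 FPKM in control, a difference of −0.77 (−1.003 centred). Slc2a6, which encodes a lysosomal member of the glucose transporter family, was the other gene lower by 2-fold on the log2(FPKM + 1) scale, at 1.84 FPKM in Tsc1cKO and 5.35 FPKM in control.

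Of 15 further genes listed under the TCA cycle, 13 were higher as deposited and 9 when centred. They include genes of cytosolic enzymes (Aco1, Idh1 and Mdh1), so the counts are not of the mitochondrial cycle alone. The centred range was −0.63, for the succinyl-CoA ligase subunit gene Suclg2, to 0.40. Sdhc, the one with the highest mean level, was at 105 FPKM in Tsc1cKO and 80.7 FPKM in control, a difference of 0.38 (0.15 centred). Both genes of the mitochondrial pyruvate carrier, listed as Brp44l and Brp44, had differences of 0.21 and 0.18 (−0.03 and −0.05 centred).

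Pgls, the lactonase of the oxidative pentose phosphate branch, was at 149 FPKM in Tsc1cKO and 92.7 FPKM in control, a difference of 0.68 (0.45 centred). Bsg, which encodes basigin, the partner that carries MCT1 to the membrane, was at 470 FPKM in Tsc1cKO and 421 FPKM in control, a difference of 0.16 (−0.08 centred).

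The most abundant gene of each remaining role was close to the shift of the table in some cases and apart from it in others. Bpgm, which makes the 2,3-bisphosphoglycerate of erythrocytes, was at 26.2 FPKM in Tsc1cKO and 15.5 FPKM in control, a difference of 0.72 (0.49 centred), and the summed erythrocyte markers were 1.91-fold higher beside it. Pdhb, the second catalytic subunit of pyruvate dehydrogenase, was at 68.8 FPKM in Tsc1cKO and 45.4 FPKM in control, a difference of 0.59 (0.36 centred). The 7 listed genes of that complex and its phosphatases, Pdhb included and 5 higher and 2 lower, ranged between −0.75 for Pdp2 and 0.74 for Pdhx, a structural subunit (−0.91 and 0.52 centred). Pcx, which makes oxaloacetate out of pyruvate, was at 8.78 FPKM in Tsc1cKO and 14.3 FPKM in control, a difference of −0.65 (−0.86 centred).

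Got2, the mitochondrial partner of Got1, was at 47.1 FPKM in Tsc1cKO and 47.5 FPKM in control. The centred differences of the others were small for Slc2a8 (−0.13), the hexokinase gene Hk3 (−0.20), the phosphoribosyl pyrophosphate synthetase gene Prps1 (−0.09) and the D-lactate dehydrogenase gene Ldhd (0.29), and larger for G6pc3 (−0.43), which encodes a widely expressed glucose-6-phosphatase.

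Of 10 measured regulators of the pathway, 7 were higher and 3 lower as deposited, and 6 higher and 4 lower when centred. Those named next were higher both ways. Myc was at 14.9 FPKM in Tsc1cKO and 3.69 FPKM in control, 4.04-fold higher. Hif1a was at 26.6 FPKM in Tsc1cKO and 21.7 FPKM in control, a difference of 0.29 (0.06 centred). Txnip, which encodes a protein that restrains glucose uptake and is itself induced by glucose, was at 116 FPKM in Tsc1cKO and 74.6 FPKM in control, a difference of 0.63 (0.39 centred).

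Of 9 measured HIF targets outside glycolysis, 4 were higher and 5 lower, with a median of −0.30 (−0.52 centred). Ndrg1, the most abundant, was at 330 FPKM in Tsc1cKO and 597 FPKM in control, and Ddit4 was at 102 FPKM in Tsc1cKO and 19.3 FPKM in control.

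**Figure D5:**
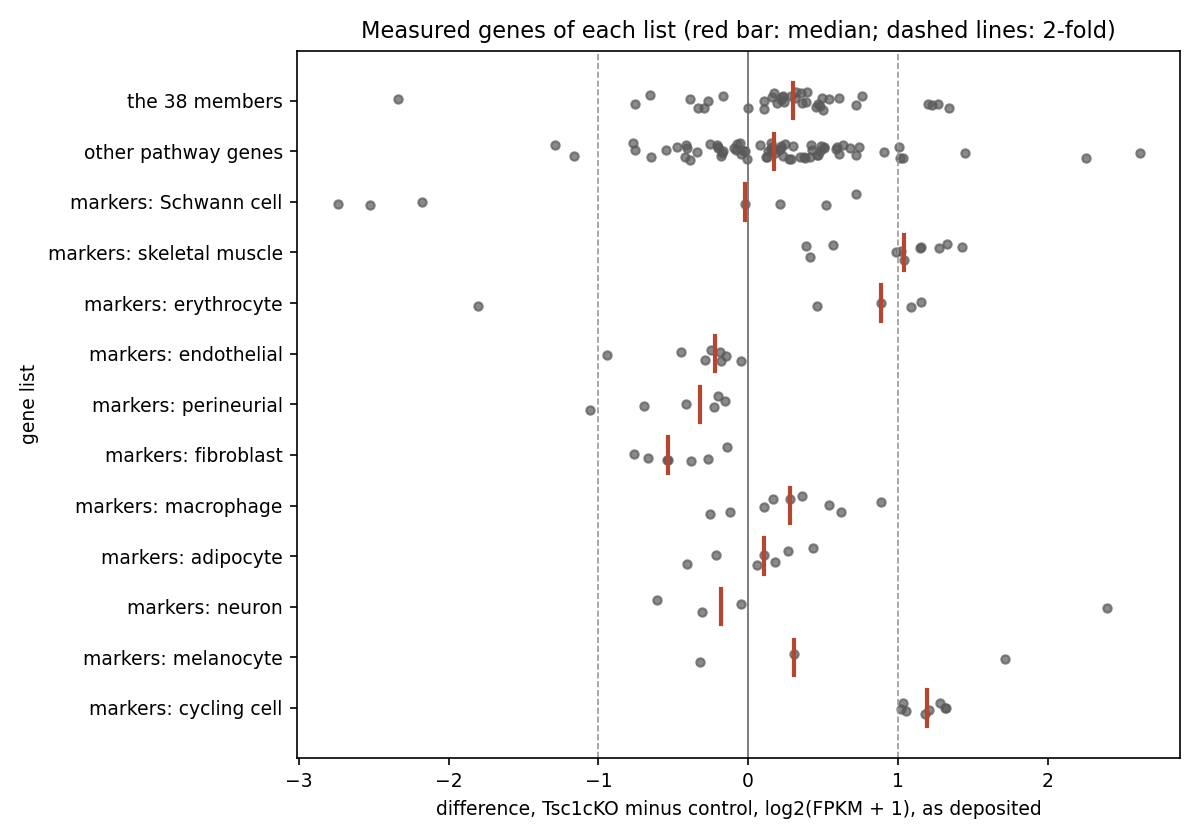
Differences of the measured genes of each list on the log2(FPKM + 1) scale as deposited, with 1 point per gene, a red bar at the median and dashed lines at 2-fold. The 38 genes centre on 0.30 and the other pathway genes on 0.17, while cycling cell markers (median 1.19) and skeletal muscle markers (median 1.04) lie to the right and fibroblast markers (median −0.54) to the left.

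Summed markers of other cell types also differed between the libraries. Erythrocyte markers were higher in 5 of 7 cases, and in 4 of the 5 measured. Their summed levels were 915 FPKM in Tsc1cKO and 479 FPKM in control. The measured marker that was lower, Hbb-b1 (0.00083 FPKM in Tsc1cKO and 2.49 FPKM in control), has a span overlapping that of Hbb-b2. Fibroblast markers were lower in 7 of 7, at 6566 and 10101 FPKM, and macrophage markers were higher in 7 of 9 (5 when centred), at 262.8 and 195.4 FPKM. Adipocyte markers were higher in 6 of 8, at 359.9 and 286 FPKM (of the 7 measured, 5 as deposited and 2 when centred), and melanocyte markers in 2 of 6, at 11.27 and 8.004 FPKM, with Mlana and Slc45a2 at 0 in both.

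Of the Schwann cell markers, Sox10 was at 246 FPKM in Tsc1cKO and 212 FPKM in control (a difference of 0.21, −0.02 centred), and S100b at 167 and 169 FPKM, so the nerve carried Schwann cell transcripts in both. Pmp22 and Mbp together held 0.999% of the FPKM sum in Tsc1cKO and 7.22% in control. The part of cell make-up in the values of the 38 genes was not tested.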

How the data were processed

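Total RNA of whole sciatic nerve was made into TruSeq libraries, per the labels' protocols. The authors deposited FPKM per gene with a status column, in separate tables for both libraries (per the file headers). Per the submitters' processing notes the tools were CASAVA, TopHat and Cufflinks, with build mm9 and no versions named. Annotation and strand use are not stated, so values of genes with overlapping spans (8 of the 38) or near-identical copies (8 of the 38, of which Aldoa, Cs, G6pdx and Ldha have copies listed below 0.05 FPKM in both libraries) are uncertain.

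The tables list the same 22532 entries in different orders and were joined by gene and span. Entries of a symbol were summed (227 symbols), and 3 symbols with a failed or excessive-depth status were left out. Depth is unknown. Among 613 genes above 0 and below 0.05 FPKM in both libraries, at most 14 shared a ratio to 2 decimals, so no step of 1 fragment could be read. Differences used a pseudocount of 1 and a filter of 1 FPKM in 1 library or both, with 2-fold as the size counted. No test was possible with 1 library per group.

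Starts are given 1-based, since table spans matched RefSeq gene lengths as end minus start for 7802 genes and with 1 added for 524. Copies were searched with blastn at 90% identity over at least 300 bases in GENCODE M21. The genes named outside the 38 are, by rule, Tsc1, the highest of each role and those past 2-fold in the pathway and regulator lists. Cell markers past 2-fold are covered by list sums. Acly, Brp44, Fbp2, Pdp2, Pdhx, Pgm2, Aco1, Idh1, Mdh1, Suclg2, Hif1a, the HIF targets, the individual markers, and genes that overlap or copy a member were chosen after their values were seen. The 38 genes and the lists were chosen with earlier results of these data known. Confidence bounds and protein sequences were not used here. Python 3.11.15, numpy 2.4.6 and pandas 2.3.3 were used, and counting and scaling were tested on simulated data. The effect of other settings is given in the closing section.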

Additional observations from a re-analysis of the deposited data

How the results depend on the processing

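No paired analysis was possible because each group had 1 library. The count of 4 genes at least 2-fold higher in Tsc1cKO was 1 with a pseudocount of 5, 7 at a threshold of 1.5-fold and 0 at 3-fold, and that of 1 gene lower was 3 at 1.5-fold. All other planned settings gave 3 or 4 higher and 1 lower. The median difference of 0.30 was 0.32 with a pseudocount of 0.1, 0.23 with one of 5, 0.32 with a filter of 5 FPKM, 0.0772 with median scaling, 0.12 with upper quartile scaling, 0.12 with a trimmed mean and 0.10 after scaling to the FPKM sum. With a pseudocount of 5, Slc2a3 (0.43), Pfkp (0.92) and Eno2 (0.89) fell short of 2-fold, as did Ldha with median scaling (0.96) and with sum scaling (0.98). No difference past 2-fold changed sign. Summing Eno1 with Gm5506, a setting chosen after seeing the data, turned the Eno1 difference to −0.02. Without replicates or fragment counts, no difference given here, of whatever size, can be told from differences between any 2 nerves. The 0.24 shift between the libraries is not a measure of that spread.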
